A study of Homo sapiens with 9 samples.

Results

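Replication-dependent histone genes encode the linker histone H1 and the core histones H2A, H2B, H3 and H4 that package newly copied DNA. They were taken here as every protein-coding gene of the GENCODE annotation on hg19 whose symbol is H1 with a number, or H2AC, H2BC, H3C or H4C with a number, or the older form of such a name. By this rule 71 of 20162 protein-coding genes were members, 10 for H1, 17 each for H2A and H2B, 13 for H3 and 14 for H4. Of these, 52 lie on chromosome 6, 13 on chromosome 1 and 6 elsewhere.

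These genes are transcribed together as cells enter S phase. Most are short, lack introns, sit in dense clusters and share promoters between divergent H2A and H2B pairs. Their mRNAs end in a conserved stem-loop in place of a poly(A) tail, and the stem-loop is bound by the protein SLBP. Trimethylation of lysine 4 of histone H3 (H3K4me3) is a mark of active promoters and spreads on both sides of a transcription start site (TSS).

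H3K4me3 was mapped by CUT&RUN, in which an antibody tethers a nuclease to marked chromatin and the released DNA is sequenced, in HEL, an established line of human erythroleukemia cells. The control group carried a non-targeting guide (NTC, 3 libraries), and the other groups carried a CRISPR knockout (KO) of METTL3, METTL14 or WTAP, subunits of the enzyme that writes N6-methyladenosine on mRNA (2 libraries each). All 4 groups come from this 1 cell line, and nothing in the labels says whether libraries of a group came from separate cultures, so that p-values measure the spread between these libraries. Each library is a list of called peaks with a calibrated signal, and a gene is called marked where a peak touches the 1 kb on either side of a TSS of the gene, its promoter signal being the sum of those peaks.

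The peaks are wider than many distances between these genes. A total of 37 members shared a promoter peak with another member, so that the 71 genes formed 52 promoter groups that share no peak. The peaks at H2AC21 and H2AC7 also lay at the start of a coding gene that is not a member. A value of 0 means that no peak was called, not that no DNA was recovered, and the depth of the libraries is unknown. The values rose in steps of 1.14 to 1.32 in NTC, 0.461 and 1.07 in METTL3-KO, and 0.320 to 0.440 in the remaining KO libraries. The lowest value of every list lay between 30.1 and 32.0, which was 24 to 28 steps in the NTC libraries and 30 to 94 steps in the KO libraries, so that the smallest called peak held more steps in every KO library. A lower signal in every cell and a loss of the mark in a fraction of the cells cannot be told apart in these libraries. Of 7 erythroid and megakaryocytic marker genes, 4 (TAL1, EPOR, KLF1 and GATA1) were marked in all 3 NTC libraries and the other 3 in 1 or 2 of them. CD3E and ALB, markers of T cells and of hepatocytes, had no peak in any library.

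The names of the genes were checked against the histone stem-loop, a sequence the rule did not use. A 16-base stem-loop with GG at its 5′ end, CC at its 3′ end, TTT in the loop and 6 base pairs in the stem was found within 150 bases after a stop codon in 61 of the 71 members. The same search found it in 66 of 20042 coding genes with an annotated stop codon, or 0.329%. The 5 genes outside the list were the histone genes H3-7, H3-4 and H2AX together with DLEU7 and CDC40. The sequence with a TTTC loop was the most frequent among members, and the forms below, with the paired stem in capitals, were found in 39, 9, 8, 4 and 1 members.
Form in 39 members: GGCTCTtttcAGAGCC
Form in 9 members: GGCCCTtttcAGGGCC
Form in 8 members: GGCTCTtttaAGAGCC
Form in 4 members: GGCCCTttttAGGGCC
Form in 1 member: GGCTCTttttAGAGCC
The members without a match included H1-7, H1-8, H1-10, H2BC12L, H2BC10, H2AC11, H2AC15, H3C6 and H4C13. H1-10 is known to be expressed outside S phase, and also stands on the list of replication-independent histone genes used below.

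The promoters of the member with the highest mean NTC signal in each family are shown as examples. A single member need not resemble the rest of its family. Each run holds the 200 bases before the 5′ end of the gene on hg19, read 5′ to 3′ on the strand of the gene. Capitals mark TATAAA (the TATA box), CCAAT (bound by the factor NF-Y), ATTTGCAT (the octamer, bound by POU2F1) and AAACACA (the H1 box), on either strand, so that ATTGG and TTTATA are also in capitals, and overlapping matches run together. H1-3 is at chr6:26235216-26235415 (minus strand), H2AC12 at chr6:27114685-27114884 (plus strand), H2BC12 at chr6:27114635-27114834 (minus strand), H3C6 at chr6:26224227-26224426 (plus strand) and H4C8 at chr6:26285867-26286066 (minus strand).
H1-3: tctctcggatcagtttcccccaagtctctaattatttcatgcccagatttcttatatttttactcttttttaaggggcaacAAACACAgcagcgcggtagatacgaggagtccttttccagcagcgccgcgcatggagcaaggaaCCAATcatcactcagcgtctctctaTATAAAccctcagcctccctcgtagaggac
H2AC12: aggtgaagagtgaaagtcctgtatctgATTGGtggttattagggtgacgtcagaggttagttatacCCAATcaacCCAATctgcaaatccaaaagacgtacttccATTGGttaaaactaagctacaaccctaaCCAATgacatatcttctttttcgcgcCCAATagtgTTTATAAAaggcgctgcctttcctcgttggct
H2BC12: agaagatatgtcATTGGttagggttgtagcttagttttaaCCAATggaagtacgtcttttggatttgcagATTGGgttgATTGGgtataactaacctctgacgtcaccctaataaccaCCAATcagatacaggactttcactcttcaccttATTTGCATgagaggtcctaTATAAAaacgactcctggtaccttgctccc
H3C6: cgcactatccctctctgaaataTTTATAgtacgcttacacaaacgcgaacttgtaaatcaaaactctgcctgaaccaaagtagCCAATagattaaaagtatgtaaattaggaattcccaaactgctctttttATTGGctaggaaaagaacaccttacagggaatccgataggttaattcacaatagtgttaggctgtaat
H4C8: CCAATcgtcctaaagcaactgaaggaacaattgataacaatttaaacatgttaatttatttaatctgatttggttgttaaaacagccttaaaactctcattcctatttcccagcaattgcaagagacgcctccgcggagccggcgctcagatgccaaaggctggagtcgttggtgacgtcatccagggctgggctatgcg
The H1-3 promoter holds an H1 box, a CCAAT box and a TATA box in this order. H4C8 holds CCAAT, which 5 of 14 H4 members hold, and lacks TATAAA, which 8 of 14 hold. H2AC12 and H2BC12 are a divergent pair whose starts enclose a single stretch of 250 bases, and their runs are overlapping readings of that stretch from opposite ends.

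Across the 250 bases upstream of all members, TATAAA was present in 63.4% of members and in 10.1% of all coding genes. CCAAT was present in 80.3% and 33.1%, and in all 13 H3 members and in 5 of 14 H4 members. The octamer was present in 35.2% of members against 1.56% of all coding genes, in 12 of 17 H2A and 12 of 17 H2B members. The H1 box was found in 8 of 10 H1 members and in no other member, against 4.49% of all coding genes. A match describes these letters and does not show that a factor is bound. Some copies cannot be separated by sequence: the 250 bases upstream of H4C14 and H4C15 were identical, 246 of 246 aligned bases were shared by H3C14 and H3C15, and 245 of 250 by H4C11 and H4C12, so that reads there may have been placed at either copy.

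The share of histone genes that was marked lay below the share of all coding genes in every NTC library and above it in every KO library. A peak was present at 27, 26 and 26 of the 71 members in the NTC libraries, which is 38.0%, 36.6% and 36.6% of them, while 46.8% to 47.9% of all coding genes were marked. In METTL3-KO libraries 45 and 39 members were marked (63.4% and 54.9%), against 34.6% and 33.5% of all coding genes. In METTL14-KO libraries the numbers were 25 and 20 (35.2% and 28.2%, against 21.1% and 13.2%), and in WTAP-KO libraries 15 and 17 (21.1% and 23.9%, against 11.4% and 12.9%). Over all coding genes, every KO library held fewer marked promoters than every NTC library. The number of marked histone genes was instead higher in both METTL3-KO libraries than in any NTC library, and lower in the METTL14-KO and WTAP-KO libraries. Counted as promoter groups, the numbers were 20 to 21 in NTC, 34 and 27 in METTL3-KO, 16 and 14 in METTL14-KO, and 11 and 12 in WTAP-KO.

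**Figure D1:**
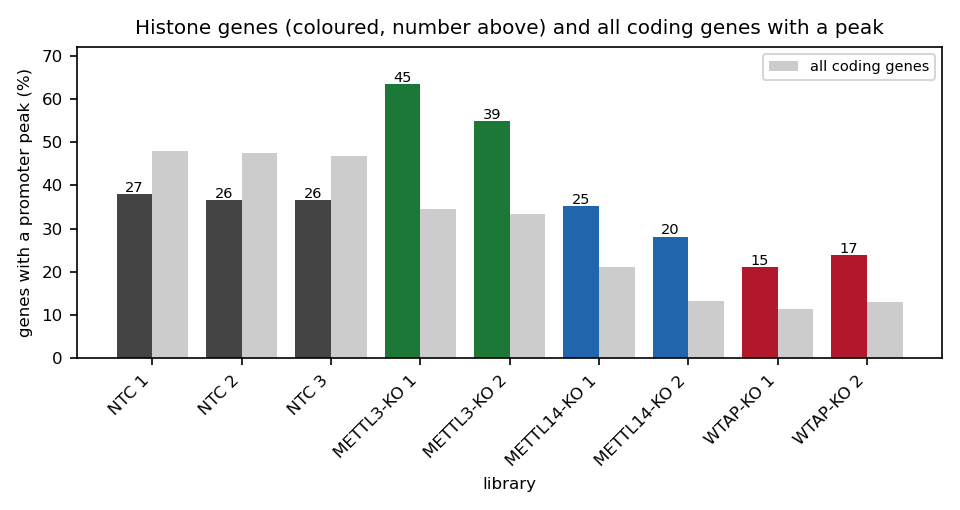
Percentage of the 71 histone genes (coloured bars, number of genes above each bar) and of all 20162 coding genes (grey bars) with a peak within 1 kb of a TSS, per library. The coloured bar is lower than the grey bar in the 3 NTC libraries and higher in the 6 KO libraries.

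The KO libraries did not mark a subset of the genes marked in NTC. A peak in all 3 NTC libraries was found at 17 members (23.9%, against 42.1% of all coding genes), in 1 or 2 NTC libraries at 18 members (25.4%, against 10.3%), and in KO libraries alone at 26 members (36.6%, against 9.47%). The remaining 10 members (14.1%, against 38.1%) had no peak in any library. Members with a peak in both METTL3-KO libraries and in no NTC library numbered 24, where the share over all coding genes was 7.95%. A peak in each of the 6 KO libraries but in none of NTC was found at 8 members, where the share over all coding genes was 2.92%. All 26 members marked in KO libraries alone lie on chromosome 6, where they are 26 of 52 members. Among the other 996 coding genes of chromosome 6 the share was 18.4%, and among the 20 coding genes between the first and the last chromosome 6 member that are no members it was 6 of 20.

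**Figure D2:**
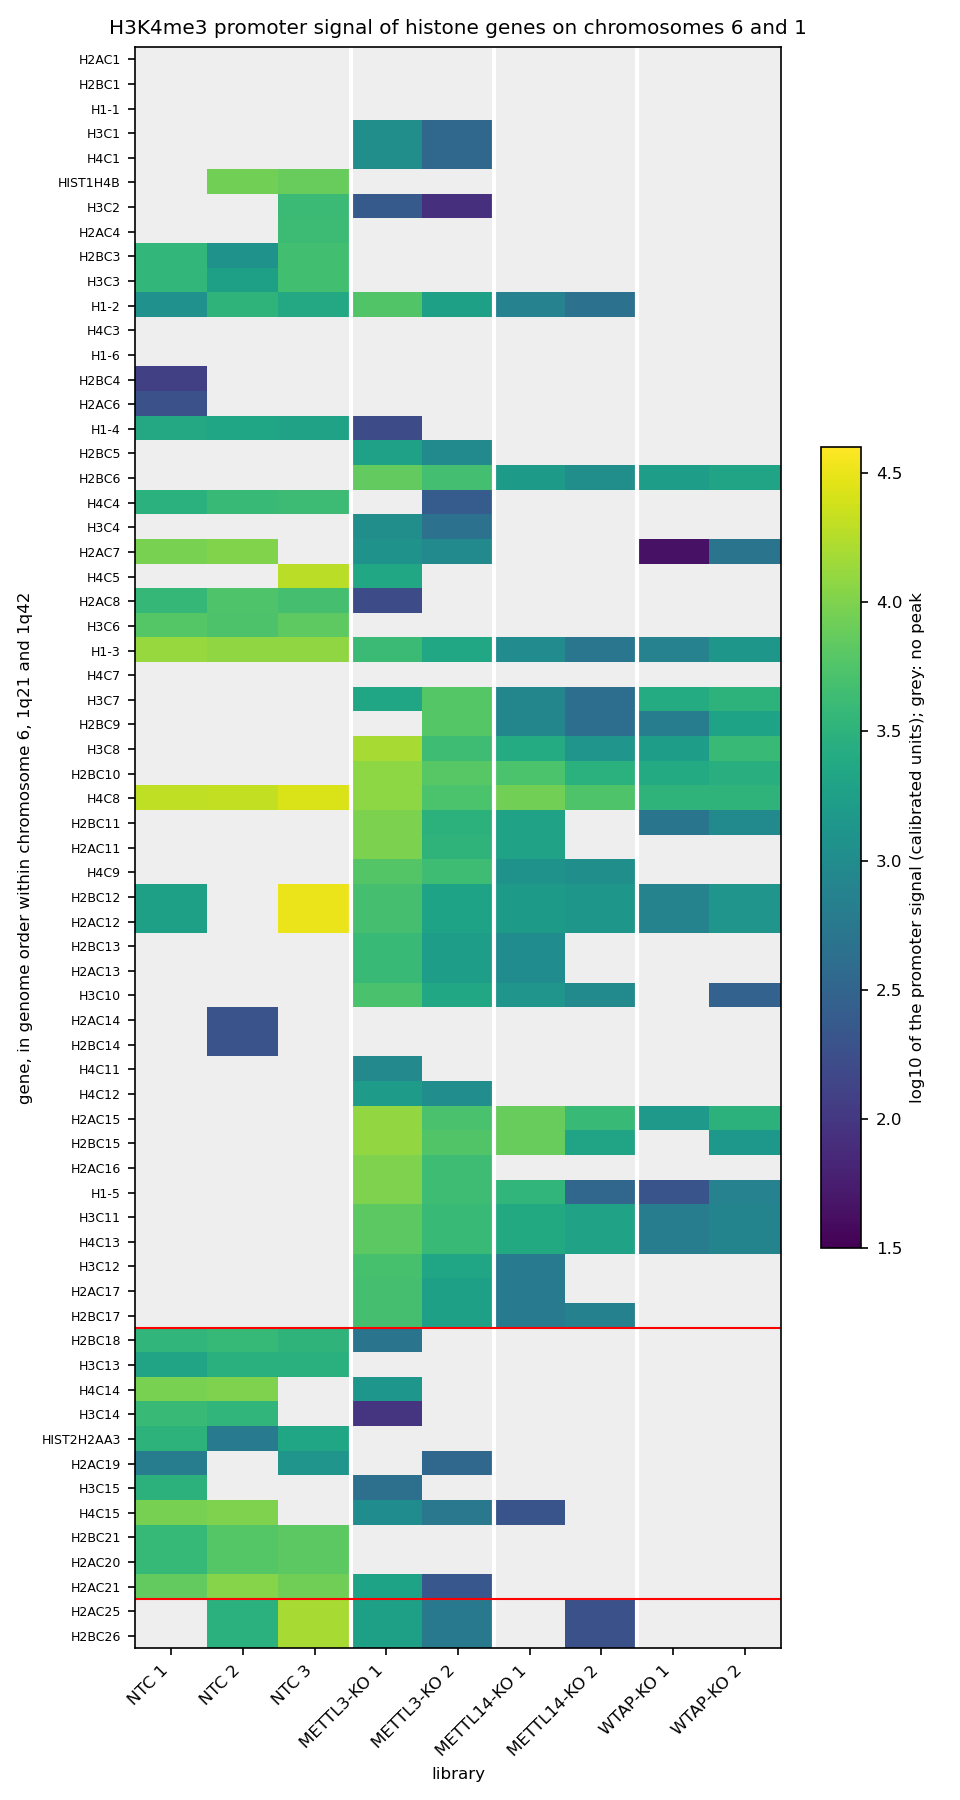
Promoter signal of the histone genes on chromosomes 6 and 1 (rows, in genome order within chromosome 6, 1q21 and 1q42, red lines between them) in each of the 9 libraries (columns), as log10 of calibrated units, with grey where no peak was called. The lower part of chromosome 6 is grey in nearly all NTC cells and filled in the METTL3-KO columns, while 1q21 shows the opposite.

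Among the H1 genes, whose linker histones bind the DNA that enters and leaves the nucleosome, 5 of 10 were marked in every NTC library and 1 in KO libraries alone. H1-3 was among the 2 members marked in all 9 libraries. Its signal was 13271, 12069 and 12085 in NTC, 4160.3 and 2217 in METTL3-KO, 985 and 526 in METTL14-KO, and 757 and 1394 in WTAP-KO. The NTC and KO values did not overlap, and the signal was lower in KO by 3.21 on the log2 scale (SE 0.354, adjusted p = 0.000155). The peak narrowed from 1769 to 1840 bp in NTC to 228 to 802 bp in the KO libraries.

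H1-5 showed the opposite distribution. No peak was called in NTC, and the signal was 9959 and 4283 in METTL3-KO, 3429 and 331 in METTL14-KO, and 201 and 753 in WTAP-KO (adjusted p = 0.000596 for all KO groups against NTC). H1-2 was marked in all NTC libraries at 1179, 3305 and 2317 and in METTL3-KO at 5748 and 1844, with overlapping values (adjusted p = 0.403). In METTL14-KO its signal was 750 and 458, below every NTC value (adjusted p = 0.045), and no WTAP-KO peak was called. The NTC peaks of H1-2 did not reach its TSS, ending at positions -465 to -287 from it. Both METTL3-KO libraries held a peak over the TSS, from position -81 to 1753 in library 1 and from -63 to 354 in library 2. H1-4 fell from 2334, 2077 and 1924 in NTC to 168 in 1 METTL3-KO library, with no peak in the other 5 KO libraries (adjusted p = 8.25e-05). H1-10 fell from 4958, 5968 and 9555 in NTC to 324 and 602 in METTL3-KO, with no peak in the other 4 (adjusted p = 1.32e-06). H1-1 and the germ cell forms H1-6, H1-7 and H1-8 are listed at 0 in every library.

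H2A and H2B form the dimers on the outer face of the nucleosome, and most of their genes are divergent pairs read from a shared promoter. In NTC 7 to 8 of 17 H2A genes and 5 of 17 H2B genes were marked per library, and in METTL3-KO 10 of 17 of each. The pair H2AC12 and H2BC12 had the highest mean NTC signal of both families, but this mean rests on a single library. The shared signal was 1814, 0 and 32026 in NTC, 4875 and 1964 in METTL3-KO, 1555 and 1387 in METTL14-KO, and 765 and 1311 in WTAP-KO. The KO values lay inside the NTC range and the difference did not pass the threshold (adjusted p = 0.836), and without NTC library 2 the estimate changed sign, from 0.48 to -2.18 on the log2 scale (adjusted p = 0.128). In a window of 0.5 kb H2AC12 was lower in KO (-4.45, adjusted p = 0.0363), and H2BC12 was not called (-2.17, adjusted p = 0.411).

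The pair H2AC15 and H2BC15 was marked in KO libraries alone, as were H2BC10 and H2BC6. H2AC15 reached 12420 and 5099 in METTL3-KO, 7634 and 3907 in METTL14-KO, and 1504 and 3078 in WTAP-KO (adjusted p = 6.45e-06). H2BC15 had the same peaks as H2AC15 in METTL3-KO library 1 and METTL14-KO library 1, shared some of them in METTL3-KO library 2, METTL14-KO library 2 and WTAP-KO library 2, and had no peak in WTAP-KO library 1 (adjusted p = 0.00342). H2BC10 reached 11709 and 6201 in METTL3-KO, 5262 and 3047 in METTL14-KO, and 2488 and 2887 in WTAP-KO (adjusted p = 1.39e-06). H2BC6 reached 7178 and 4721 in METTL3-KO and between 1081 and 2030 in the other 4 KO libraries (adjusted p = 6.9e-07).

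The pair H2BC21 and H2AC20 on chromosome 1 went the other way. Its shared signal was 3825, 6056 and 6639 in NTC, and no peak was called in any KO library (adjusted p = 7.19e-08). H2BC3, which shares peaks with H3C3, had 3533, 1227 and 4598 in NTC and none in KO (adjusted p = 7.62e-06). H2AC7, marked in 2 NTC libraries, had 9579, 10164 and 0 in NTC, 1224 and 938 in METTL3-KO, 0 and 0 in METTL14-KO, and 45.2 and 490 in WTAP-KO (adjusted p = 0.214). The 0 in NTC library 3 makes the NTC range enclose every KO value, and without that library the difference passed the threshold (adjusted p = 0.00122). H2AC1 and H2BC1, a divergent pair known from testis, had no peak in any library, nor did H2BC12L.

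H3 genes encode the histone that carries the mapped mark. Of 13 H3 genes, 3 were marked in all NTC libraries, 3 in 1 or 2, and 7 in KO libraries alone, the largest share of such genes among the 5 families. H3C6 had the highest mean NTC signal, 6103, 5359 and 6771, and no peak in any KO library (adjusted p = 8.7e-09). H3C3 had 3533, 1835 and 4598 in NTC and no KO peak (adjusted p = 9.23e-07). H3C13, on chromosome 1, had 2032, 2951 and 2968 in NTC and no KO peak (adjusted p = 4.51e-08).

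H3C8 was listed at 0 in all NTC libraries. Its signal was 15600 and 4352 in METTL3-KO, 2522 and 1301 in METTL14-KO, and 1748 and 3955 in WTAP-KO (adjusted p = 2.22e-05). Both METTL3-KO values include a peak shared with H2BC10. H3C11 and its neighbour H4C13, an H4 gene, shared a signal of 6596 and 3953 in METTL3-KO, 2440 and 1933 in METTL14-KO, and 644 and 783 in WTAP-KO, again with no NTC peak. H3C12 was marked in METTL3-KO at 4994 and 2103 and in METTL14-KO library 1 at 616, with no peak in the other libraries (adjusted p = 0.0217). This call was lost without METTL3-KO library 1 (adjusted p = 0.0564) and without NTC library 1, 2 or 3 (adjusted p = 0.0625, 0.0617 and 0.0634). H3C12 overlaps H2AC17, and a shared stretch of 171 bases lies upstream of both.

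H4 genes encode the least variable of the core histones. H4C8 was the other member marked in all 9 libraries. Its signal was 20243, 20936 and 26806 in NTC, 11957 and 5265 in METTL3-KO, 8830 and 5544 in METTL14-KO, and 3303 and 3302 in WTAP-KO. The NTC values lay above all KO values, and H4C8 had a log2 change of -1.98 in KO (SE 0.297, adjusted p = 0.000766) on the calibrated scale, but was higher by 0.87 (adjusted p = 0.00341) once each library was centred on the genes marked in all 9 libraries, since those genes fell by more. Its peak kept its width more than that of H1-3, with 1632 to 1767 bp in NTC, 1142 and 1378 bp in METTL3-KO and 836 to 1345 bp in the other KO groups.

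H4C5 had a signal of 18935 in NTC library 3 and 0 in the other NTC libraries, and 2200 in 1 METTL3-KO library (adjusted p = 0.462). HIST1H4B, the older name of H4C2, had 8785 and 7679 in 2 NTC libraries and no peak elsewhere (adjusted p = 0.0338). H4C9 was marked in KO libraries alone, at 5903 and 4397 in METTL3-KO and 1222 and 1117 in METTL14-KO (adjusted p = 1.73e-07). H4C12 was marked in the METTL3-KO libraries alone, at 1617 and 1051 (adjusted p = 7.43e-05). Both adjusted p are for all KO groups against NTC. Neither gene had an NTC peak, so these calls follow from where peaks were called. H4C11, the near copy of H4C12, was marked in METTL3-KO library 1, at 913. H4C3 and H4C7 on chromosome 6 and H4C16 on chromosome 12 had no peak in any library.

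The members fall into 4 blocks of at least 5 neighbouring genes, and the blocks differed in how peaks were distributed between the groups. In the block from H2BC13 to H2BC17 (chr6:27774707-27862203, 16 members) the NTC libraries held 0, 1 and 1 peaks covering 0, 161 and 589 bp. The METTL3-KO libraries held 14 and 12 peaks there covering 10927 and 10047 bp, the METTL14-KO libraries 4387 and 2553 bp, and the WTAP-KO libraries 968 and 2186 bp. A member was marked in NTC only at the pair H2AC14 and H2BC14, by a single peak of 194 in the second library, and that pair had no peak in any KO library. In METTL3-KO 14 and 13 of the 16 members were marked.

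In the block from H1-1 to H4C8 (chr6:26017015-26286866, 29 members) 11 to 13 members were marked in NTC, 16 and 15 in METTL3-KO, and 8 in each other KO library. Peaks covered 13431 to 16318 bp in NTC and 13072 and 13003 bp in METTL3-KO, a similar length at partly different genes. Genes such as H1-2, H1-3 and H4C8 were marked in both groups. In the other KO libraries peaks covered 4186 to 5902 bp. In the block from H2BC11 to H2AC12 (chr6:27099574-27115885, 5 members) 2, 0 and 2 members were marked in NTC, all 5 in both METTL3-KO libraries and in METTL14-KO library 1, and 3 in each other KO library. The block on chromosome 1q21 from H2BC18 to H2AC21 (chr1:149782928-149860515, 11 members) was the reverse. Peaks covered 14274, 12650 and 5934 bp in NTC, 2568 and 1233 bp in METTL3-KO, 239 bp in METTL14-KO library 1, and nothing in the other 3 KO libraries.

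**Figure D3:**
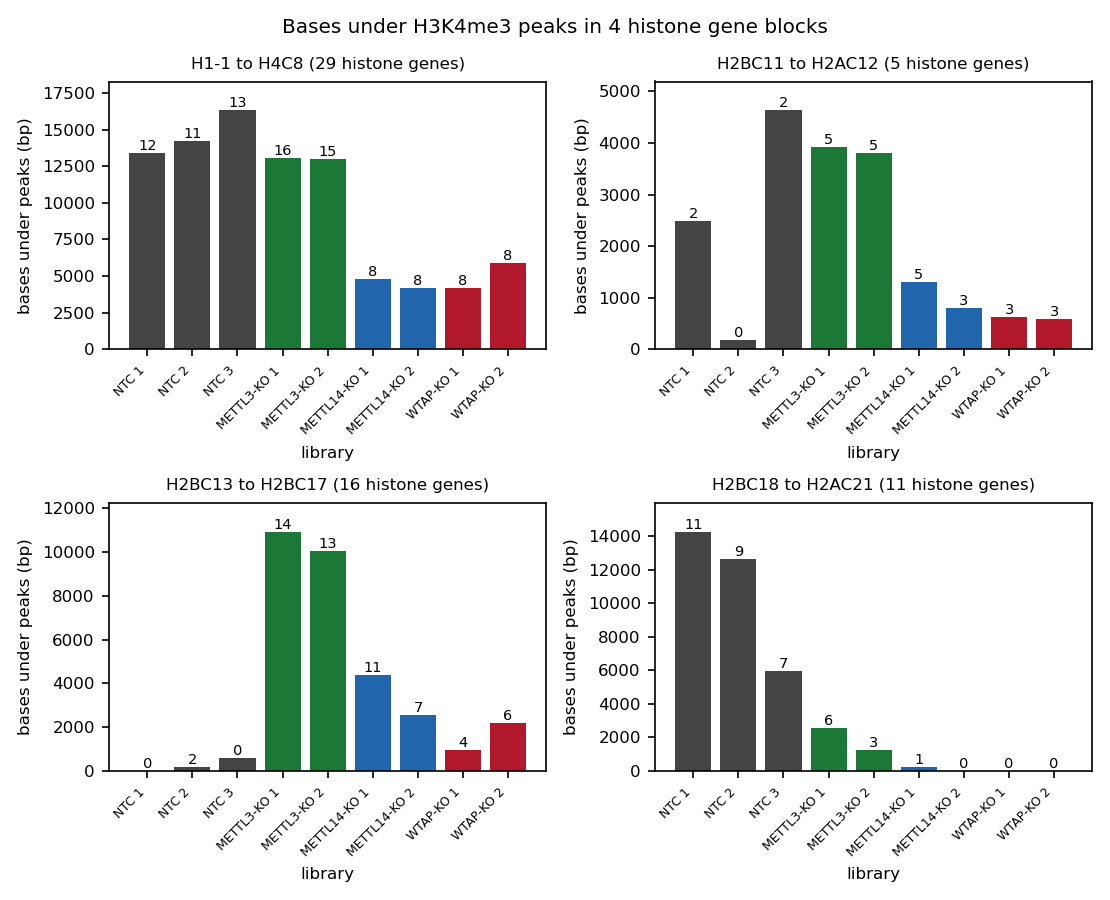
Bases under H3K4me3 peaks (bp) in each library for the 4 blocks of neighbouring histone genes, with the number of marked histone genes above each bar. The block H2BC13 to H2BC17 is nearly empty in the 3 NTC libraries and reaches 10927 bp in METTL3-KO, and the 1q21 block H2BC18 to H2AC21 falls from 14274 bp in NTC to 0 bp in METTL14-KO library 2 and both WTAP-KO libraries.

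On chromosome 1, 6 of 13 members were marked in all NTC libraries and the other 7 in 1 or 2 of them, and none in KO libraries alone. H2AC21 had 7107, 10789 and 8379 in NTC and 1961 and 218 in METTL3-KO, with no peak in METTL14-KO or WTAP-KO (adjusted p = 7.5e-05). H2BC18, H3C13 and HIST2H2AA3 (the older name of H2AC18) were likewise marked in all NTC libraries, and of these H2BC18 alone had a KO peak, of 492 in METTL3-KO library 1. H4C14 had 9567, 9936 and 0 in NTC and 1333 in METTL3-KO library 1, and H4C15 had 9213, 9952 and 0 in NTC and 1014 and 553 in METTL3-KO. Neither H4 copy passed the threshold (adjusted p = 0.0914 and 0.149), and both did without NTC library 3 (adjusted p = 0.00521 and 0.00111). H3C14 lay at the threshold (adjusted p = 0.0479), with 3908, 3447 and 0 in NTC and 94.9 in METTL3-KO library 1, and lost the call when any library other than NTC 3 was left out (adjusted p from 0.0673 to 0.172). H3C15 (3142 in NTC library 1) and H2AC19 (653 and 1311 in NTC libraries 1 and 3) did not pass the threshold (adjusted p = 0.427 and 0.109), and H2AC19 did without NTC library 2 (adjusted p = 0.00886). The pair H2AC25 and H2BC26 on 1q42 had 0, 3011 and 15779 in NTC, 1837 and 571 in METTL3-KO and 187 in METTL14-KO library 2 (adjusted p = 0.194), and passed without NTC library 1 (adjusted p = 0.00467).

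The comparison of all KO groups with NTC asked how promoter H3K4me3 differs once the m6A writer complex is disrupted. Histone genes went both ways: 19 were lower in KO, where 72.9% of all genes tested were lower, and 25 were higher, where 14.5% of all genes tested were higher. The lower members included H1-3, H4C8, H3C6, H1-10, H2AC20 and H2BC21, and the higher members included H2BC10, H2AC15, H2BC6, H3C8, H4C9 and H1-5. The test was limma on log2(signal + 30.1) over 12037 genes with a peak in at least 2 libraries, of which 55 were members. All 17 members marked in every NTC library were lower, as were 98.5% of all such genes, and all 25 tested members marked in KO libraries alone were higher, as were 93.3% of such genes. The remaining 2 lower members, H3C14 and HIST1H4B, were marked in 2 NTC libraries. The members marked in KO libraries alone passed the filter only through those libraries, and their NTC values are all 0 with no spread. The number of higher calls and the adjusted p given for each of these members thus follow from where peaks were called.

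The median change over the 55 tested members was -1.52 on the log2(signal + 30.1) scale, against -5.47 over all genes tested. Centring on the genes marked in all 9 libraries moved the median of all genes to -5.00 and that of the members to 0.87. Counted once per shared peak, 15 promoter groups held a lower and 15 a higher member. Without METTL3-KO library 1 the number of higher members was 14, and without METTL3-KO library 2 it was 16.

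In METTL3-KO against NTC, 15 members were lower (61.0% of all genes tested) and 24 higher (14.1% of all genes tested), and the median change of the members was 0.64 against -3.56. This median was -0.44 without METTL3-KO library 1, where the median of all genes was -3.94. In METTL14-KO against NTC, 17 were lower (68.8%) and 12 higher (8.42%), with medians of -1.68 and -5.75. In WTAP-KO against NTC, 17 were lower (69.7%) and 9 higher (6.82%), with medians of -2.24 and -6.20. These 3 comparisons share the NTC libraries. H2BC10, H2AC15, H2BC6, H3C8 and H1-5 were higher in each of them. H1-3 and H4C8 were lower in each of them, with a mean KO signal of 25.6% and 38.0% of the NTC mean in METTL3-KO, 6.06% and 31.7% in METTL14-KO, and 8.62% and 14.6% in WTAP-KO. Over the 665 coding genes marked in all 9 libraries the median percentages were 28.8%, 12.9% and 8.03%.

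Of the 17 members marked in all NTC libraries, 7 had no METTL3-KO peak, 14 no METTL14-KO peak and 15 no WTAP-KO peak, which is 41.2%, 82.4% and 88.2%. Among all 8495 such coding genes the percentages were 46.3%, 73.3% and 84.9%. Where NTC peaks were called throughout, histone genes lacked KO peaks at shares near those of other genes. The 7 members without any KO peak were H3C6, H3C3, H2BC3, H2AC20, H2BC21, H3C13 and HIST2H2AA3. Without METTL3-KO library 1 the number without a METTL3-KO peak was 11.

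Histone genes were also compared between the KO groups. Against the mean of the METTL14-KO and the WTAP-KO group, 22 members were higher in METTL3-KO, where 30.0% of all genes tested were higher, and the median change was 2.06 against 1.76 over all genes tested. The count was 12 after centring on the genes marked in all 9 libraries and 13 after dividing by the step of each library. No member was lower, where 0.598% of all genes tested were lower, and with limma at an unadjusted p under 0.05 the count of lower members was also 0 and that of higher members 25. H2AC16, H2BC5, H4C12, H3C1, H4C1 and H3C4 had peaks in both METTL3-KO libraries and in no other library, so that they entered the test through the group in which they are high and their calls follow from that filter. H2AC16 had 9959 and 4283 in METTL3-KO, from a peak it shares with H1-5 that was narrower and did not reach its window in the other KO groups. H2BC5 had 1860 and 939, and in a window of 3 kb, which takes in more peaks, its difference between all KO groups and NTC turned from higher to lower (-4.30, adjusted p = 5.44e-06). H2AC11, H3C12 and H2AC17 were also marked in METTL14-KO library 1, and passed with adjusted p = 0.0283, 0.0119 and 0.0135 in this comparison. Of the 22 members, 18 were marked in KO libraries alone and 4, which were H1-2, H1-3, H1-10 and H2AC21, in all NTC libraries. Without METTL3-KO library 1, 11 of the 47 members still tested were higher and their median change was 1.64. Without METTL3-KO library 2, 17 of 49 were higher and 1 was lower.

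The peak lists have an upper limit of width, and peaks near it were frequent at histone genes. No peak of any list was wider than 2000 bp among 99358, and none was narrower than 150 bp. At members, 24 of 79 widest promoter peaks in NTC libraries (30.4%) and 14 of 84 in METTL3-KO libraries (16.7%) were wider than 1500 bp, and none in METTL14-KO or WTAP-KO. Over all coding genes the percentages were 26.1%, 5.46%, 2.24% and 1.55%. Members marked in 1 or 2 NTC libraries had a median NTC width of 1097 bp, and 12 of their 28 widths were over 1500 bp. Examples are HIST1H4B (1849 and 1899 bp in the 2 NTC libraries that marked it), H4C15 (1579 and 1848 bp), H2AC7 (1624 and 1456 bp), H4C5 (1705 bp) and H2BC12 (1895 bp in NTC library 3). The single NTC peak at H3C15 was 1810 bp wide.

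The wider the METTL3-KO peak of a gene, the more often the gene lacked an NTC peak. Among all coding genes with a METTL3-KO promoter peak, the share without any NTC peak was 7.03% for a widest METTL3-KO peak of 150 to 299 bp, 13.6% for 300 to 599 bp, 21.5% for 600 to 899 bp, 34.0% for 900 to 1199 bp, 51.0% for 1200 to 1499 bp and 70.3% for 1500 to 2000 bp. Histone genes were spread over all these widths, with 16, 7, 8, 4, 3 and 10 members, of which 4, 3, 4, 4, 2 and 9 lacked an NTC peak. Over genes with a peak in both METTL3-KO libraries the share also rose with the METTL3-KO signal, from 7.93% in the lowest decile to 52.0% in the highest. The stretch without a called NTC peak around the TSS of the 26 members marked in KO libraries alone was 5462 to 264830 bp long, so none was a gap of 2000 bp or less between called peaks. Whether wider enrichment in NTC libraries was left out of the lists was not tested.

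**Figure D4:**
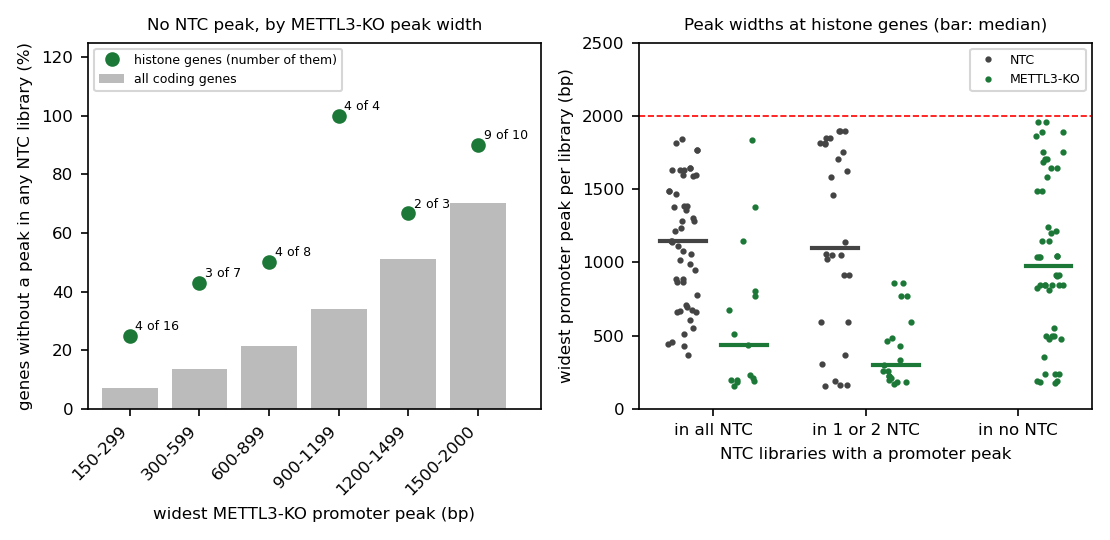
Left, the percentage of genes without a peak in any NTC library (y axis) by the width of the widest METTL3-KO promoter peak in bp (x axis), for all coding genes (bars) and histone genes (points, with numbers). Right, the widest promoter peak per library and histone gene in bp, in NTC (grey) and METTL3-KO (green) libraries, by the number of NTC libraries that marked the gene, with medians as bars and the widest value of all lists, 2000 bp, as a dashed red line.

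The called peaks also lay differently around the TSS. In the NTC libraries 11, 8 and 12 members had a peak over the annotated 5′ end of the gene itself (11.3% to 16.9%, against 26.3% to 27.4% of all coding genes). In METTL3-KO libraries 22 and 21 members did (31.0% and 29.6%, against 16.1% and 14.8%), in METTL14-KO libraries 11 and 10 (15.5% and 14.1%, against 10.6% and 5.48%), and in WTAP-KO libraries 6 and 9 (8.45% and 12.7%, against 3.63% and 4.17%). Over all pairs of a member and a peak at its promoter, the median NTC peak ran from position -699 to 154 around the TSS and the median KO peak from position -201 to 369. A peak shared by neighbouring members enters this count once for each of them. Over members that share no peak, the median NTC peak ran from position -728 to 390 and the median KO peak from position -81 to 509.

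H3C8 and H2BC10 and the nearby H4C8 show both distributions side by side. At H4C8 all 9 libraries held a peak over the TSS. At H3C8 and H2BC10 each KO library held 3 or 4 separate peaks with gaps between them, and METTL3-KO peaks there reached 1486 and 1681 bp. The NTC libraries held no call over a stretch of 29730, 29846 and 29875 bp that contains both starts.

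**Figure D5:**
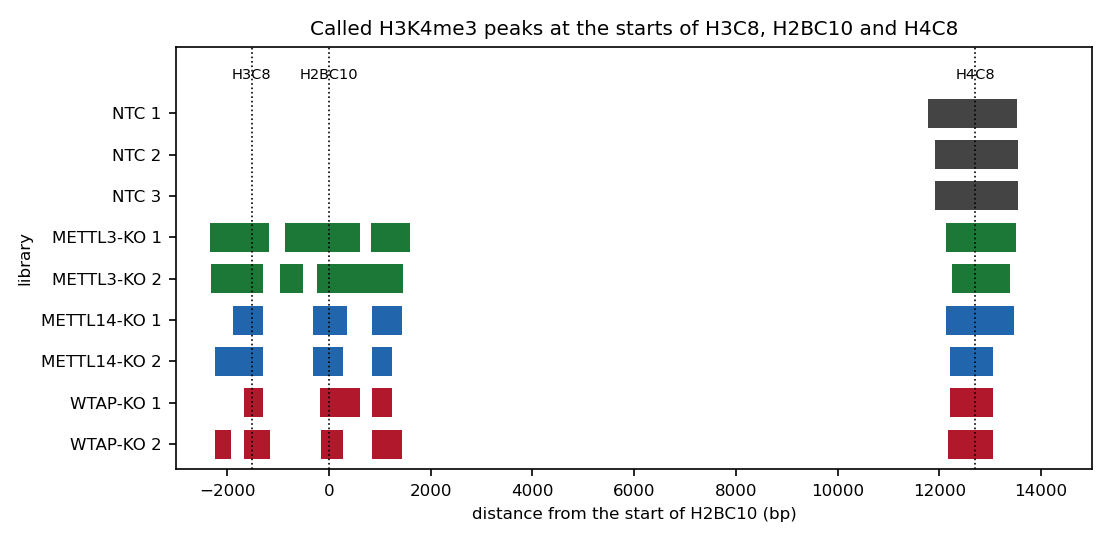
Called H3K4me3 peaks within 1 kb of the TSS of H3C8, H2BC10 and H4C8 in each library (rows), by distance in bp from the TSS of H2BC10 (dotted lines, the 3 starts), coloured by group. Peaks farther than 1 kb from these starts are not drawn. The 3 NTC libraries have a peak at H4C8 alone, and the 6 KO libraries have peaks at all 3 genes.

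Genes that act with or beside the replication-dependent histone genes were counted in the same fit. Of 12 histone genes listed as replication-independent, 8 were marked in all NTC libraries, 1 in KO libraries alone and 3 in no library. Among the 9 tested, 7 were lower and 1 higher in all KO groups against NTC (72.9% and 14.5% of all genes tested), with a median change of -4.73, nearer to that of all genes (-5.47) than to that of the members (-1.52). H3-3A, which encodes the variant H3.3, had 3887, 15624 and 6015 in NTC and no KO peak (adjusted p = 3.14e-06). H2AZ1, which encodes H2A.Z, had 4859, 6611 and 7607 in NTC and 299 and 393 in METTL3-KO alone among KO libraries (adjusted p = 1.81e-07). H3-3B, the second H3.3 gene, was marked in all 9 libraries and did not pass the threshold (adjusted p = 0.103). The higher gene was H2AX, the variant phosphorylated at DNA breaks, which also holds a stem-loop. It had 0 in every NTC library, 11474 and 6322 in METTL3-KO, 3564 and 0 in METTL14-KO, and 1137 and 0 in WTAP-KO (adjusted p = 0.0408). With no NTC peak, this call follows from where peaks were called.

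Of 19 factors of histone gene transcription and mRNA 3′ end processing, 12 were lower and 7 higher in all KO groups against NTC (72.9% and 14.5% of all genes tested), with a median change of -5.41. Of the 7 higher factors, 6 were marked in KO libraries alone. These 6 passed the filter only through KO libraries and have no NTC peak, so their calls follow from where peaks were called. NPAT, the coactivator of histone gene transcription at the histone locus body, had no NTC peak, 14319 and 5524 in METTL3-KO, 6909 and 4738 in METTL14-KO, and 968 and 1271 in WTAP-KO (adjusted p = 3.21e-06). CASP8AP2, its partner in the histone locus body, had no NTC peak and between 2629 and 9155 in the 6 KO libraries (adjusted p = 4.35e-07). NFYA, a subunit of the CCAAT-binding factor, had no NTC peak and between 5869 and 21164 in KO (adjusted p = 2.1e-07). The widest METTL3-KO peaks at NPAT, CASP8AP2 and NFYA were 1537, 1169 and 1540 bp. NFYC, SYMPK and CPSF3, the last of which is the nuclease that cuts histone pre-mRNA, were also marked in KO libraries alone. HINFP, a transcription factor of H4 genes, was marked throughout, at 1478, 1457 and 2055 in NTC and between 6318 and 14984 in KO, and was higher by 2.39 on the log2 scale (SE 0.232, adjusted p = 8.1e-05).

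The lower factors included SLBP, with 2035, 1632 and 6621 in NTC and no peak in METTL14-KO library 2 or in WTAP-KO (adjusted p = 0.00316), and LSM10, a subunit of the U7 particle, which fell from 11498, 12140 and 13229 in NTC to between 522 and 4647 in KO (adjusted p = 9.14e-05). POU2F1, CDK2, CCNE1, YY1, NFYB, ERI1, LSM11, ZNF473, CPSF2 and CSTF2 were also lower. Of 11 histone chaperones, which carry histones to DNA, 5 were lower, 3 were higher and 3 did not pass the threshold (72.9% of all genes tested were lower and 14.5% higher), with a median change of -4.21. CHAF1A, CHAF1B, SSRP1, HIRA and ATRX were lower. NASP, DAXX and SUPT16H were higher and were marked in KO libraries alone, so that their calls also follow from where peaks were called. ASF1A, ASF1B and NAP1L1, each marked in 1 or 2 NTC libraries, did not pass the threshold.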

How the data were processed

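H3K4me3 CUT&RUN peak lists of 9 libraries were used, 3 NTC and 2 each of METTL3-KO, METTL14-KO and WTAP-KO, grouped by the sample labels. The authors deposited 1 list of called peaks per library, with a signal per peak that they calibrated to spike-in yeast DNA. The submitters' processing notes name Bowtie, Picard, hg19 and sacCer3, and versions are not given in the sources used here. Depth is unknown, so no counting interval is given. Peak starts were read as counted from 0, which no source states. Genes and TSSs came from GENCODE release 44 lifted to hg19, and sequences from the hg19 genome.

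Per gene and library, the deposited signal of every peak touching 1 kb on either side of any TSS was summed. The tests used limma with a variance trend on log2(signal + 30.1), the smallest promoter signal, over 12037 genes with a peak in at least 2 libraries, with all 4 groups in the fit and Benjamini-Hochberg adjustment over all genes tested at a threshold of 0.05. The script was tested on simulated data. Where a group has no peak, a fitted change depends on the added constant, so signals and adjusted p are given in place of a fold, and the medians over genes carry that dependence. Versions were R 4.3.3, limma 3.58.1, Python 3.11.15, pandas 2.3.3, numpy 2.4.6 and matplotlib 3.10.9.

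Genes were named by rule: in each family the member with the highest mean NTC signal, members marked in all 9 libraries, members marked in KO libraries alone, in NTC libraries alone or in 1 or 2 NTC libraries (at most 6 of each), the 6 largest differences of METTL3-KO from the other KO groups, members on chromosomes 1 and 12, and the gene lists. Any other gene was named after its values were seen. Some genes counted here are not reported by name. The members and the lists were chosen with earlier results of these data known.

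The alternatives covered the constant, the filter, the scale, the window, the overlap, the peak threshold, the choice of TSS, the samples in the fit, a replicate block, the variance trend, shared peaks and each library left out in turn.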

Additional observations from a re-analysis of the deposited data

Results flagged for a closer look

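In the direct comparison of KO groups, 22 histone genes had a higher promoter signal in METTL3-KO than in the mean of the METTL14-KO and the WTAP-KO group (limma, Benjamini-Hochberg adjusted over all genes tested), where 30.0% of all genes tested were higher. Of the 22, 18 were marked in KO libraries alone, and those with peaks in METTL3-KO alone passed the filter only through that group. The count was 12 after centring on the genes marked in all 9 libraries and 13 after dividing by the step of each library.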

How the results depend on the processing

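Requiring a peak in at least 4 libraries left 30 members among 6713 genes. In all KO groups 10 histone genes were lower and 14 higher (4474 and 1201 of all genes). In METTL3-KO 8 were lower and 13 higher (3438 and 1090 of all genes). In METTL14-KO 10 were lower and 12 higher (4406 and 1010), and in WTAP-KO 10 were lower and 10 higher (4500 and 826). In METTL3-KO against the other KO groups 13 were higher (3523 of all genes). Leaving out peaks below a signal of 2095.2, the NTC median, left 38 members among 8692 genes. In all KO groups 18 were lower and 11 higher (6986 and 885 of all genes). In METTL3-KO 9 were lower and 14 higher (5782 and 875 of all genes). In METTL14-KO 9 were lower and 0 higher (5898 and 312), and in WTAP-KO 9 were lower and 0 higher (5921 and 191). In METTL3-KO against the other KO groups 12 were higher (1045 of all genes). In that setting 8 of 9 members marked in all NTC libraries had no METTL14-KO peak and 8 of 9 no WTAP-KO peak, the mean numbers marked per library were 20 in METTL3-KO, 4.5 in METTL14-KO and 1.5 in WTAP-KO, and H2AC15, H2BC15 and H3C8 lost their calls. Taking from each group that shares a peak the member with the highest mean NTC signal gave 15, 14, 6 and 5 higher in all KO groups, METTL3-KO, METTL14-KO and WTAP-KO, and counting groups with any called member gave 15, 15, 9 and 7. A window of 0.5 kb gave 5 higher in WTAP-KO (737 of 11619 genes) and a mean of 10 marked per WTAP-KO library. For METTL3-KO against the other KO groups, centring on genes marked in all 9 libraries gave 1 lower and 12 higher (140 and 2102 of all genes), and dividing by the step gave 13 higher (2068 of all genes). The causes were not tested.

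With 1 library left out, the number higher in all KO groups ranged from 14 to 24, that of METTL3-KO against the other KO groups from 11 to 24 higher and 0 to 1 lower, and that of NTC-marked members without a METTL3-KO peak from 7 to 11. The median log2 change of the tested members ranged from -2.17 to 1.47 in all KO groups and from -0.44 to 3.73 in METTL3-KO. The estimate for H2AC12 and H2BC12 ranged from -2.18 to 2.84.

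The median log2 change changed sign in all KO groups with a peak in at least 4 libraries (0.48) and after centring (0.87), in METTL3-KO with a 3 kb window (-0.094) and the stricter threshold (-0.76), and in METTL14-KO with a peak in at least 4 libraries (0.31). H2AC12 and H2BC12 changed sign with 10 times the constant (-0.46), a 3 kb window (-1.99), the stricter threshold (-1.05) and a 0.5 kb window (-4.45, adjusted p = 0.0363, and -2.17), and H2AC12 also with an overlap of 100 bp (-2.17). H4C8 changed sign after centring (0.87) and lost its call when divided by the step (adjusted p = 0.324), and H2BC5 changed sign and became a lower call with a 3 kb window (-4.30, adjusted p = 5.44e-06).

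No pairing by replicate number was seen: the deviations from the group mean of the 12 same-numbered pairs correlated at -0.062 to 0.098. In a KO group of 2 libraries these deviations mirror each other. Pairs between KO groups therefore repeat the same value, and the 12 pairs are not separate checks. With the replicate number as a block, 21 histone genes were lower and 19 higher in all KO groups (8599 and 1409 of all genes). In METTL3-KO against the other KO groups 19 were then higher (2776 of all genes). The median change in all KO groups was then 1.04, as was the change of H4C5, and H2AC11, H2AC17 and H3C12 lost their calls while H2AC7, H4C14 and H4C15 gained one.

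Among counts of histone genes, 273 recomputed values stayed within 1.5 times the main count and 34 did not. Libraries without depth and lists without peaks over 2000 bp limit what an absent peak can show.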
